A study of Drosophila melanogaster with 27 samples.

Results

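AGO1-bound messenger RNA of a fly genotype labelled Tim-Dcr was set against that of wild type, each as precipitated from adult Drosophila melanogaster heads with an antibody to AGO1. The 6 arrays of this comparison, of 27 in the series, were chosen by label. They are the Tim-Dcr immunoprecipitates (IP) at ZT3 and at ZT15, with 1 array each, and the wild-type IP at ZT3 and at ZT15, with 2 arrays each. ZT counts hours after lights on, under a day of 12 h light and 12 h dark. Differences were taken within each time, and a gene was kept where both times gave the same sign. Beside them stand the arrays of the head extracts before precipitation (INPUT), namely 2 of Tim-Dcr and 3 of wild type at the same times, and 16 wild-type arrays of other times, 8 of each fraction, which helped to estimate the spread.

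The labels do not say what Tim-Dcr stands for, which allele or transgene it carries, in which cells, or how it was verified. They give no age, sex or strain, and without a control immunoprecipitation in the analysis, RNA that stuck unspecifically remains in the IP values. According to the series' design text, wild-type replicates are biological ones. The description of 1 wild-type IP array, ZT3 replicate 1, names another time than its title and time label, which were followed, and counts without that array are given where they move. Tim-Dcr has a single array per fraction and time, so the spread of that genotype was not measured on its own.

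AGO1 is the Argonaute protein that carries microRNAs in flies. A microRNA guides it to partly complementary sites, mostly in 3′ untranslated regions, and the bound mRNA is then repressed and often degraded. Dicer enzymes cut the precursors: Dcr-1 makes microRNAs, and Dcr-2 makes small interfering RNAs. An mRNA is thus recovered with AGO1 according to how much of it the head holds and to the share of it that AGO1 holds, and the design separates these only through the INPUT arrays. The name tim also belongs to a clock gene, timeless, whose mRNA is made rhythmically in clock neurons, photoreceptors and glia.

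Values are the deposited log2 expression values per probe set, and a difference of 1 is 2-fold. Of 18769 probe sets without controls, 15835 had a value above 4 in at least 3 arrays and were tested, and they stand for 11337 genes with a symbol of their own. Probe sets for AGO1, Dcr-1 and the eye colour gene w alone were not among them, so none of these is reported. Dcr-2 had 5.96 at ZT3 and 6.13 at ZT15 in Tim-Dcr IP, against 5.41 and 5.96 at ZT3 and 5.70 and 5.66 at ZT15 in wild type. Its difference of 0.36 (SE 0.16) did not pass the test (limma, Benjamini-Hochberg adjusted p = 0.0808).

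The IP differed between the genotypes in a large share of what was measured. Of 15835 probe sets, 4270 (27%) were higher in Tim-Dcr and 2691 (17%) lower at an adjusted p under 0.05 by limma, and 6950 of these 6961 calls (44% of those tested) had the same sign at ZT3 and at ZT15. Counted as genes, 2541 were higher (22.4%) and 2376 lower (21.0%), of which 2536 and 2374 kept 1 sign, where 8962 genes of all tested (79.1%) did so. The call tests the mean of the differences at both times, and its spread holds their change between the times. Calls of opposite sign are thus rare by construction, so the shared sign is no separate support. Past 2-fold the balance was the other way, with 237 genes higher (2.09%) and 1561 lower (13.8%). Without the Tim-Dcr IP array of ZT15 the calls were 1385 probe sets higher and 1640 lower.

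The weak side of the higher calls went with low signal. Probe sets under 4 in all 6 IP arrays numbered 3761 and had a median difference of 0.27, against 0.11 for the others, and they made up 30.1% of the higher calls. Array medians were 4.34 and 4.54 in Tim-Dcr IP, against 4.77 to 4.90 in wild-type IP, while array means nearly coincided at 5.13 and 5.14 against 5.15 to 5.18. When every array was centred on its median, the median difference of all genes moved to 0.42, against 0.10 as deposited, and the calls became 9380 probe sets higher and 1940 lower, so that 82.9% of calls were higher, against 61.3%. Small positive differences are therefore read here against the median of all genes, and list medians are given beside it. The Tim-Dcr arrays correlated with each other at 0.971 across probe sets, the wild-type arrays among themselves at 0.972 to 0.992, and Tim-Dcr with wild type at 0.856 to 0.969.

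The 15 genes with the highest differences in IP had various known products, and several are known by number only. Osi6, of the insect Osiris family of secreted and endosomal proteins, had 5.65 at ZT3 and 5.84 at ZT15 in Tim-Dcr, against 2.34 and 2.37 at ZT3 and 2.58 and 2.31 at ZT15 in wild type. CG12947 had 6.47 and 6.61 in Tim-Dcr, against 3.20 and 3.60 at ZT3 and 3.35 and 3.63 at ZT15 in wild type. Both were near the lowest values of wild-type arrays and clearly above them in both Tim-Dcr arrays. The difference on the deposited log2 scale was 3.34 for Osi6 (SE 0.21, limma adjusted p = 2.32e-08) and 3.10 for CG12947 (SE 0.12, adjusted p = 4.11e-11). No fold is given where one genotype lies this low, since differences there depend on the background that GCRMA removes. In INPUT the same genes differed by 3.45 and 3.41.

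Blimp-1, a transcriptional repressor of the steroid response, had 10.08 at ZT3 and 9.67 at ZT15 in Tim-Dcr IP, against 7.86 and 7.73 at ZT3 and 7.39 and 7.34 at ZT15 in wild type. The groups lay 2.30 apart (SE 0.15, 4.91-fold, limma adjusted p = 3.25e-08), with no overlap at either time. In INPUT, Blimp-1 had 8.16 and 8.19 in Tim-Dcr, against 7.50 at ZT3 and 7.47 and 7.35 at ZT15 in wild type, a difference of 0.73. The excess in IP over that in INPUT, 1.57 (SE 0.22), passed its own test (adjusted p = 0.00309). CG3857 gave a like picture, with 8.79 and 8.61 in Tim-Dcr IP, against 6.67 and 6.75 at ZT3 and 6.21 and 6.53 at ZT15 in wild type. It differed by 2.16 in IP and by 0.51 in INPUT, though a second probe set of this gene differed by 0.17 only.

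Lsp2, a larval storage protein of the fat body, had 8.85 and 8.32 in Tim-Dcr IP, against 6.17 and 6.16 at ZT3 and 6.19 and 5.86 at ZT15 in wild type. These 4 wild-type arrays were close together, but over all 12 wild-type IP arrays Lsp2 ranged from 4.92 to 6.94, and the SE of its difference of 2.49 was 0.66 (limma adjusted p = 0.00634). The other genes among the 15 highest were CG13678 (2.31), CG31219 (2.29), CG8012 (2.16), CG16898 (2.11), the tetraspanin Tsp26A (2.08), the carbonic anhydrase CAH9 (2.04), the neuropeptide-like precursor Nplp4 (1.92), CG12912 (1.92), dpy, a giant protein of the apical extracellular matrix (1.90), and CG8854 (1.89). In each of these 15 genes both Tim-Dcr values lay above all 12 wild-type IP values, as they did for 21.9% of genes. The rule that named them took the largest differences, so this describes them and tests nothing.

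Among the 15 genes with the lowest differences were several of male reproductive products, a cuticular hydrocarbon enzyme and a midgut trypsin. Acp98AB, an accessory gland protein, had 6.84 at ZT3 and 3.05 at ZT15 in Tim-Dcr IP, against 12.57 and 10.72 at ZT3 and 12.71 and 12.04 at ZT15 in wild type. SP, the sex peptide of seminal fluid, had 3.92 and 2.62 in Tim-Dcr, against 9.49 and 8.28 at ZT3 and 9.69 and 9.32 at ZT15 in wild type. Wild-type IP held both at high levels, and Tim-Dcr lay below them without overlap, furthest at ZT15. Acp98AB was lower by -7.06 (SE 0.87, limma adjusted p = 1.47e-05) and SP by -5.93 (SE 0.43, adjusted p = 1.79e-07).

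Cyp4g1, the oenocyte enzyme that ends the synthesis of cuticular hydrocarbons, had 5.91 and 3.43 in Tim-Dcr IP, against 10.47 and 9.24 at ZT3 and 11.31 and 9.92 at ZT15 in wild type. It was lower by -5.57 (SE 0.66). The trypsin alphaTry of the midgut had 6.09 and 3.66 in Tim-Dcr, against 10.74 and 9.61 at ZT3 and 11.34 and 10.63 at ZT15 in wild type, a difference of -5.70 (SE 0.57). ocn, a gene of the testis, had 8.16 and 2.65 in Tim-Dcr, against 11.24 and 9.49 at ZT3 and 11.46 and 10.28 at ZT15 in wild type. Its level in Tim-Dcr thus stood below both wild-type arrays at each time, nearer to them at ZT3 than at ZT15. The others of the 15 lowest were BG642312 (-6.41), the seminal fluid genes Dup99B (-5.85), EbpII (-5.74) and Acp53C14b (-5.72), the male antibacterial peptide gene Anp (-5.44), lncRNA:CR9284 (-5.38), CG31226 (-5.34), CG17377 (-5.28), CG18662 (-5.28) and CG31740 (-5.25). In all 15 both Tim-Dcr values lay below all 12 wild-type values, as in 21.3% of genes. A second probe set of CG17377 had a difference of the opposite sign.

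**Figure D1:**
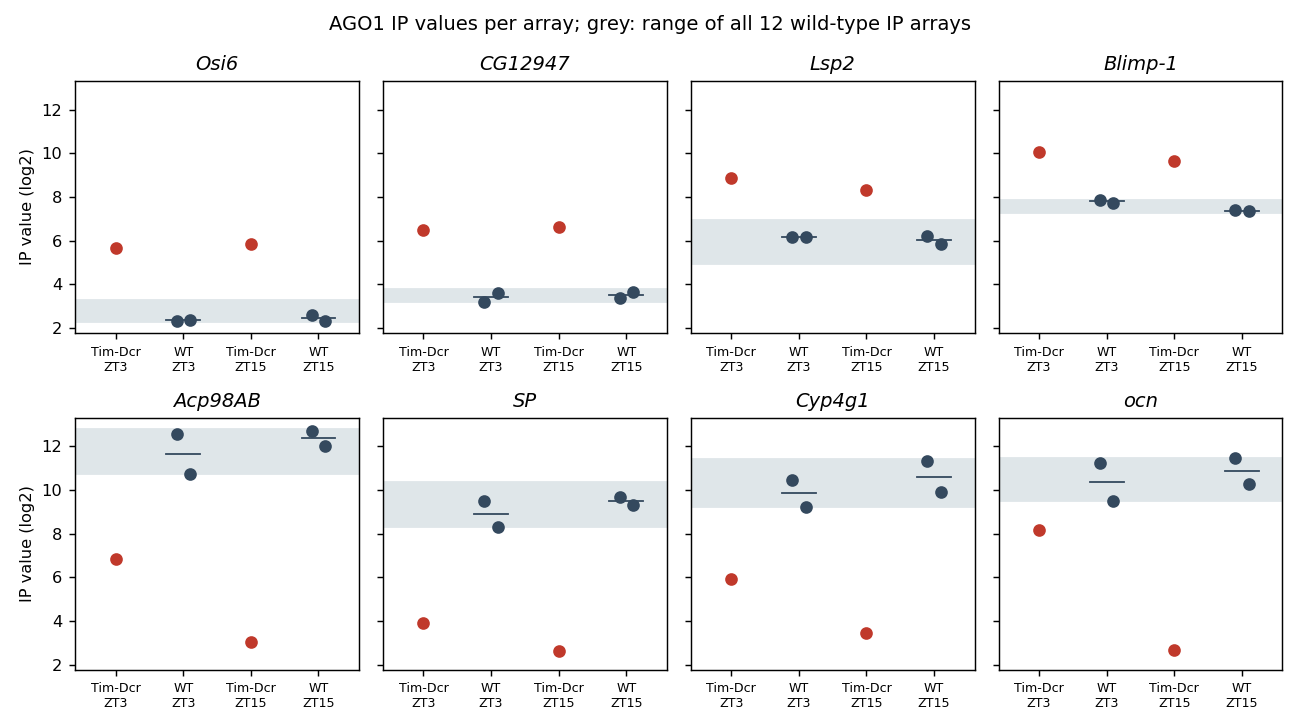
Deposited log2 values in IP (y axis) of 4 genes among the highest and 4 among the lowest differences, 1 point per array, for Tim-Dcr and wild type (WT) at ZT3 and at ZT15; horizontal marks are means of 2 wild-type arrays and the grey band spans all 12 wild-type IP arrays. Both Tim-Dcr points lie outside the band in every panel, and those of Acp98AB and ocn lie far apart from each other.

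The seminal fluid, testis and midgut lists had the lowest medians of the lists examined. Of all genes 21.0% fell and 22.4% rose in IP. Of 35 seminal fluid genes, 29 fell in Tim-Dcr IP, 0 rose by limma and 6 did not pass, and their median difference was -2.93, against 0.10 for all genes. The list's median level was 3.92 at ZT3 and 3.46 at ZT15 in Tim-Dcr, against 5.94 to 6.86 in the 4 wild-type arrays. Of 28 testis and sperm genes, 23 fell and 0 rose, with a median of -2.06, led after ocn by the sperm protein genes Mst84Db (-4.73), Mst87F (-4.54) and Mst84Dd (-4.48). Of 26 midgut proteases 18 fell and 2 rose, with a median of -1.39; Jon65Aiv (-4.81), Jon65Aiii (-4.71) and betaTry (-4.64), digestive serine proteases, followed alphaTry. Tim-Dcr lay below both wild-type arrays at both times in 28 seminal fluid, 25 testis and 19 midgut genes, against 26.4% of all genes. Wherever a list is given here with 0 members higher or 0 lower in IP by limma, 0 members also had an unadjusted p under 0.05 in that direction.

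The same 3 lists were low in Tim-Dcr INPUT, where 32, 25 and 20 of their members fell (20.9% of all genes fell in INPUT) and the medians were -2.94, -2.67 and -1.61. The log2 of the levels in IP summed over the testis list was 9.28 to 11.42 in Tim-Dcr, against 12.89 to 14.29 over the 12 wild-type arrays. Summed over the midgut list it was 8.86 to 9.38 in Tim-Dcr, against 11.29 to 13.28. The sums of the 2 genotypes did not overlap in either list, nor in the seminal fluid list, at 12.26 to 12.64 in Tim-Dcr, against 13.48 to 14.61 in wild type. Fewer cells of a type in the collected material and less RNA per cell cannot be told apart in such samples, and what the difference in these lists contributes to other genes was not tested. In neither direction did the ovary or muscle list exceed the share of all genes in IP, of which 22.4% rose and 21.0% fell. Ovary genes had 0 of 14 higher by limma, 2 lower, Cp15 (-1.63) and bgcn (-1.54), and a median of 0.01. The oocyte gene osk (-1.23) and the eggshell gene Vm26Aa (-1.03) did not pass. Of 20 muscle genes 1 rose, Strn-Mlck (0.76, with another of its 3 probe sets at -1.81), and 1 fell, Act87E (-0.63), with a median of -0.27 that became 0.05 on centred arrays. The flight muscle genes TpnC4 (-1.75), Act88F (-1.56, of opposite sign at the 2 times) and Act79B (-0.93) did not pass.

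**Figure D2:**
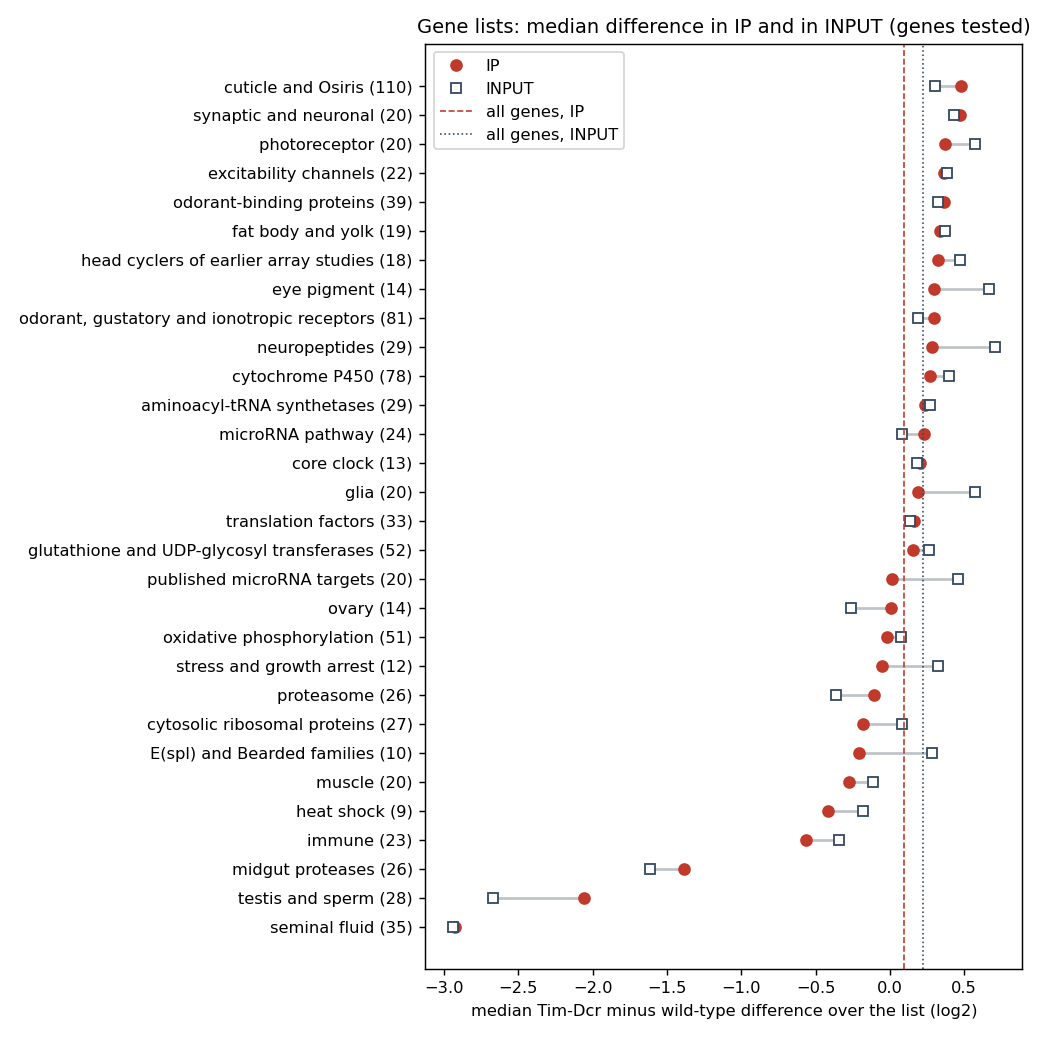
Median difference of Tim-Dcr minus wild type (x axis, log2) over the tested members of each gene list (y axis, number of genes in brackets), with filled circles for IP and open squares for INPUT; vertical lines are the medians of all genes. Seminal fluid, testis and midgut lists lie far to the left in both fractions, and for most lists the 2 symbols lie on the same side of the line of all genes.

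Lists that mark the head itself stood slightly above the median of all genes, of which 22.4% rose and 21.0% fell in IP. Of 20 synaptic and neuronal genes 9 rose and 0 fell by limma, with a median of 0.47. The sodium channel para led them, with 5.58 and 5.40 in Tim-Dcr IP, against 4.34 and 4.47 at ZT3 and 3.72 and 4.0 at ZT15 in wild type, a difference of 1.36 (SE 0.21, limma adjusted p = 9.25e-05). The RNA-binding protein gene fne (1.07), the vesicular glutamate transporter VGlut (0.88) and the SNARE gene Snap25 (0.80) followed. Of 22 excitability channel genes 8 rose and 1 fell around a median of 0.37. Ih (1.02), a hyperpolarisation-activated channel, and the potassium channel SK (0.91, from 0.14 to 1.13 over its 4 probe sets) rose, while Ork1 (0.65) did not pass. Of 20 photoreceptor genes 6 rose and 2 fell around 0.37, with the eye protein kinase inaC (1.10), the G protein beta subunit Gbeta76C (0.93) and the scaffold inaD (0.73) high and the scavenger receptor ninaD (-0.61) low.

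Eye pigment genes included 1 of the stronger differences of the head lists. se, which makes the pteridine precursor of red eye pigment, had 9.13 and 8.87 in Tim-Dcr IP, against 6.73 and 7.83 at ZT3 and 6.83 and 7.19 at ZT15 in wild type, and differed by 1.85 (SE 0.21, 3.61-fold, limma adjusted p = 7.26e-06). The pigment transporters st (1.14) and bw (1.11) were higher too, rb (0.51) did not pass, and the list had 5 of 14 higher and 0 lower by limma around a median of 0.30. Of 29 neuropeptide genes 9 rose and 0 fell by limma around 0.28. Nplp3 had 13.04 and 12.50 in Tim-Dcr, against 10.85 and 11.48 at ZT3 and 10.46 and 10.85 at ZT15 in wild type (difference 1.86, SE 0.31), and the insulin-like peptide Ilp5 (1.59) and SIFa (1.05) were also higher. Of 20 glial genes 6 rose and 0 fell by limma around 0.19, with the GABA transporter Gat (1.70), Mdr65 (1.27), an export pump of the blood-brain barrier, CG6126 (0.86) and wrapper (0.81) at the front. The share of all genes that rose was 22.4%, so the photoreceptor and glial counts stand near it.

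The log2 of the summed levels in IP lay above all 12 wild-type arrays for the synaptic, photoreceptor and fat body lists. For the glial list it lay within their range. In such a sum the most abundant members weigh most, such as Yp2 of the fat body list, at 13.92 and 13.88 in Tim-Dcr IP. The synaptic sum was 13.95 to 13.97 in Tim-Dcr, against 13.12 to 13.84 in wild type, and the photoreceptor sum 14.88 to 14.89, against 14.20 to 14.86. The glial sum was 13.48 in both Tim-Dcr arrays, against 13.18 to 13.52. In INPUT, over 11 wild-type arrays, the synaptic sum was 14.97 to 15.13 in Tim-Dcr, against 14.37 to 14.90, and the glial sum 14.54 to 14.61, against 14.01 to 14.27, both without overlap. The photoreceptor sums in INPUT overlapped, at 16.02 to 16.08 in Tim-Dcr, against 15.69 to 16.05 in wild type. The sum of the fat body and yolk list in IP was 15.71 in both Tim-Dcr arrays, against 15.15 to 15.42 in wild type, and in INPUT 16.54 to 16.59, against 16.06 to 16.27. The part of these list levels in other results was not tested. Of the 19 fat body and yolk genes 7 rose and 2 fell around 0.34, where 22.4% of all genes rose and 21.0% fell. Lsp2, Lsd-1 (0.93), a lipid droplet protein, and the yolk protein Yp2 (0.91) led them, while the female fat body gene fit (1.25) did not pass.

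Of chemosensory, detoxification and cuticle genes more members rose than fell in each of 5 lists, where 22.4% of all genes rose and 21.0% fell. Of 110 cuticle and Osiris genes 59 rose and 6 fell, around a median of 0.48, and 80 lay above both wild-type arrays at both times, against 32.7% of all genes. After Osi6, the cuticle protein genes Cpr64Ad (1.87) and Cpr65Au (1.58) were highest, and TwdlP (-1.60) was lowest. Most of the list had little signal, with a median wild-type level of 3.46. Of 81 odorant, gustatory and ionotropic receptor genes 30 rose and 2 fell around 0.30, at a median wild-type level of 2.85. All probe sets at wild-type IP levels from 2.28 to 2.89 had a median difference of 0.31, so this list stands near them. Of the 3761 probe sets under 4 in all 6 IP arrays, 1286 were called higher. Among the receptors Ir76a (1.85), Or63a (0.86) and Ir68a (0.80) rose and Ir75a (-0.83) fell. Of 39 odorant-binding protein genes 16 rose and 6 fell around 0.37, from Obp99a (1.77) to Obp51a (-4.16), Obp56i (-2.15) and Obp56a (-1.86). Of 78 cytochrome P450 genes 31 rose and 7 fell around 0.27. Cyp12d1-d (1.45), known for insecticide resistance, was highest, and Cyp312a1 (-2.76) and Cyp4ad1 (-1.41) followed Cyp4g1 at the low end. Of 52 glutathione and UDP-glycosyl transferase genes 16 rose and 5 fell around 0.16, among them GstE14 (1.66), which takes part in ecdysteroid synthesis, against Ugt305A1 (-2.34), GstE7 (-1.51) and GstD5 (-1.17).

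Among immune and heat shock genes more members fell than rose, where 21.0% of all genes fell and 22.4% rose. Of 23 immune genes 9 fell and 1 rose around a median of -0.56 (-0.24 on centred arrays). Drs, the antifungal peptide drosomycin of the Toll pathway, had 6.36 and 6.47 in Tim-Dcr IP, against 9.03 and 9.90 at ZT3 and 8.22 and 9.46 at ZT15 in wild type (difference -2.74, SE 0.44, limma adjusted p = 1.26e-04). Mtk, the peptide metchnikowin, had 9.51 and 9.48 in Tim-Dcr, against 11.71 and 12.16 at ZT3 and 11.30 and 11.83 at ZT15 in wild type (difference -2.26, SE 0.18), and DptB differed by -2.34; the lysozyme LysX (-1.31) did not pass. All 3 antimicrobial peptide genes lay below wild type without overlap. Of 9 heat shock genes 5 fell and 1 rose around -0.41, with the small heat shock genes Hsp27 (-1.63) and Hsp26 (-1.54) and the inducible Hsp68 (-0.57) lower and l(2)efl (-0.65, with another probe set at 0.24) not past the test. Of 12 stress and growth arrest genes 3 rose, among them crc (1.02), the fly ATF4, and Hsc70-3 (0.48), and 2 fell, Gadd45 (-0.89) and p53 (-0.71), around -0.05 (0.27 on centred arrays), counts near the shares of all genes.

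Lists of housekeeping complexes had medians from -0.18 to 0.24, on both sides of that of all genes (0.10). Set against the 22.4% of all genes that rose and the 21.0% that fell, the counts for the proteasome (lower) and the synthetases (lower) were near those of all genes. Of 27 cytosolic ribosomal protein genes 11 fell and 0 rose by limma around -0.18, which became 0.14 on centred arrays; RpS12 (-0.64), RpLP2 (-0.57), RpS21 (-0.44) and RpL10Ab (-0.43) fell most. Of 33 translation factors 12 rose and 3 fell around 0.16, with eEF1alpha2 (0.97), the elongation factor of neurons and muscle, eIF4E1 (0.60), eIF3e (0.60) and pAbp (0.51) higher. Of 29 aminoacyl-tRNA synthetases 9 rose and 5 fell around 0.24. The lowest were TrpRS-m (-1.61), CysRS-m (-1.07), TrpRS (-0.94, with -0.23 at another of its probe sets) and ValRS-m (-0.79). Of 51 oxidative phosphorylation genes 4 rose and 5 fell around -0.02. ATPsynbeta (0.70, with 0.02 at another probe set) and ND-13B (0.63) stood against ND-B8 (-1.44) and ND-B17 (-0.82). Of 26 proteasome genes 6 fell and 2 rose around -0.11, with Prosbeta3 (-1.03), Prosalpha3 (-0.68), Prosalpha7 (-0.64) and Prosalpha5 (-0.64) lowest. The medians of the oxidative phosphorylation and proteasome lists became 0.30 and 0.21 on centred arrays, where that of all genes was 0.42.

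tim, Clk and vri differed between the times in the same direction in Tim-Dcr IP as in wild-type IP. tim had 7.41 at ZT3 and 10.08 at ZT15 in Tim-Dcr, against 7.60 and 7.34 at ZT3 and 10.28 and 10.28 at ZT15 in wild type. Clk, the activator that heads the loop, had 9.48 and 7.97 in Tim-Dcr, against 9.39 and 9.61 at ZT3 and 7.47 and 7.65 at ZT15 in wild type. Both genotypes thus held tim low and Clk high at ZT3, and the reverse at ZT15. The difference between genotypes was -0.13 for tim (SE 0.19, with 0.80 at another probe set) and 0.20 for Clk (SE 0.15), neither past the test (limma adjusted p = 0.603 and 0.295). The repressor gene vri had 7.17 and 11.14 in Tim-Dcr, against 7.69 and 7.75 at ZT3 and 10.06 and 10.69 at ZT15 in wild type, and lay below wild type at ZT3 (-0.55) and above it at ZT15 (0.77). Its mean difference of 0.11 (SE 0.29) thus joins opposite signs, and the change between the times, 1.31 (SE 0.37), did not pass (limma adjusted p = 0.100). Clk (-0.01 at ZT3 and 0.41 at ZT15) and slmb (-0.34 and 0.24) also changed sign.

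Of 13 core clock genes 6 rose and 0 fell by limma, around a median of 0.20. Of all genes 22.4% rose and 21.0% fell, around 0.10. per, the partner of tim in the repressor complex, had 5.10 and 6.99 in Tim-Dcr IP, against 4.66 and 4.79 at ZT3 and 6.58 and 6.36 at ZT15 in wild type (difference 0.45, SE 0.14, limma adjusted p = 0.0164). Pdf, the neuropeptide of the ventral clock neurons, had 6.04 and 6.57 in Tim-Dcr, against 5.02 and 5.67 at ZT3 and 5.47 and 5.83 at ZT15 in wild type (difference 0.81, SE 0.17). The light receptor cry (0.57), the activator Pdp1 (0.48), the Pdf receptor Pdfr (0.42) and cyc (0.37), the partner of Clk, were the other 4. cwo (-0.24, with 0.15 at another probe set), dco (0.13), jet (0.05) and slmb (-0.05) did not pass. In limma's test of the difference between the times 0 of the 13 passed, and 1 had an unadjusted p under 0.05, so the offsets at ZT3 and ZT15 were not shown to differ. Of 18 genes that earlier array studies named as cycling in heads, 6 rose and 4 fell around 0.32. The count that fell is near the share of all genes. CG42329 (1.12) and CG14275 (0.80) were high and CG17560 (-1.52) and CG10513 (-1.0) low.

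Genes of the microRNA pathway were higher in 8 and lower in 2 of 24, around 0.23. Of all genes 22.4% were higher and 21.0% lower, around 0.10. twin, a deadenylase of the CCR4-NOT complex, was lowest, with 8.02 and 7.20 in Tim-Dcr IP, against 9.36 and 8.56 at ZT3 and 9.56 and 9.01 at ZT15 in wild type (difference -1.52, SE 0.24, limma adjusted p = 1.13e-04), and differed by -1.71 in INPUT. Hen1, which methylates small RNA ends, differed by -0.95. brat, a translational repressor (0.82), and Fmr1, the fly fragile X protein (0.81), were highest. Published microRNA targets, a list that includes Clk and was compiled with results of these samples known and is therefore no independent evidence, had 1 of 20 higher and 2 lower in IP around 0.01. The TRIM protein gene mei-P26 (0.61) rose, the sensory organ factor sens (-1.52) and the Wnt carrier wls (-0.47, named after its value was seen) fell, and BobA (-2.12) and Tom (-1.09), of the Bearded family of Notch antagonists, did not pass, and Tom had opposite signs at the 2 times. BobA had 2.45 and 2.64 in Tim-Dcr, against 2.86 and 2.61 at ZT3 and 6.66 and 6.52 at ZT15 in wild type, so that only the later wild-type arrays stood apart. Among 10 E(spl) and Bearded family genes 2 rose, near the share of all genes, and 0 fell by limma, around -0.21 (0.11 on centred arrays). E(spl)m2-BFM stood at 0.84, and E(spl)malpha-BFM (-0.85) did not pass the test.

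Among the probe sets lower in Tim-Dcr IP, most had a lower value at ZT15 than at ZT3, and a minority passed the test of that change. Of the 1734 called and over 2-fold lower (11%), 1593 lay lower at ZT15 and 304 passed, with medians of -1.64 at ZT3 and -2.76 at ZT15. For the 359 called and over 2-fold higher (2.27%) the medians were 1.14 at ZT3 and 1.37 at ZT15. The test of the difference at ZT15 minus that at ZT3 called 307 probe sets lower (1.94%) and 26 higher (0.164%), or 273 (2.41%) and 21 (0.185%) genes, and 272 of the 273 were also called lower in IP. Of the testis and sperm list 12 members passed it, of the seminal fluid list 6. The lowest were CG8701 (-6.20), CG17376 (-6.19), ocn (-6.01), CR17567 (-5.98) and CG31870 (-5.88). CG8701 had 9.07 at ZT3 and 3.37 at ZT15 in Tim-Dcr IP, against 11.38 and 10.05 at ZT3 and 11.62 and 10.81 at ZT15 in wild type. In Tim-Dcr INPUT ocn likewise had 9.94 at ZT3 and 4.32 at ZT15, against 12.18 at ZT3 and 12.51 and 11.87 at ZT15 in wild type. The highest were CG11825 (1.80), CG34355 (1.53), the growth factor gene Pvf2 (1.52), CG33096 (1.43) and CG42588 (1.33, with 2 further probe sets of the opposite sign in IP).

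With 1 Tim-Dcr array at each time, a difference between the times and a difference between those 2 collections cannot be told apart. The count of 307 was 706 without wild-type IP ZT3 replicate 1 and 174 without wild-type IP ZT15 replicate 1, and the count of 26 ran from 10 without wild-type IP ZT3 replicate 2 to 139 without wild-type IP ZT3 replicate 1. It was 11 without wild-type IP ZT15 replicate 1 and 77 without wild-type IP ZT15 replicate 2. CG11456 (0.01 at ZT3 and 0.83 at ZT15) and kraken (-0.63 and -0.01) were the called genes nearest to a change of sign that were kept, and CG10853 (0.74 and -0.03) and CG31688 (-0.03 and 1.21) the nearest that were not.

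**Figure D3:**
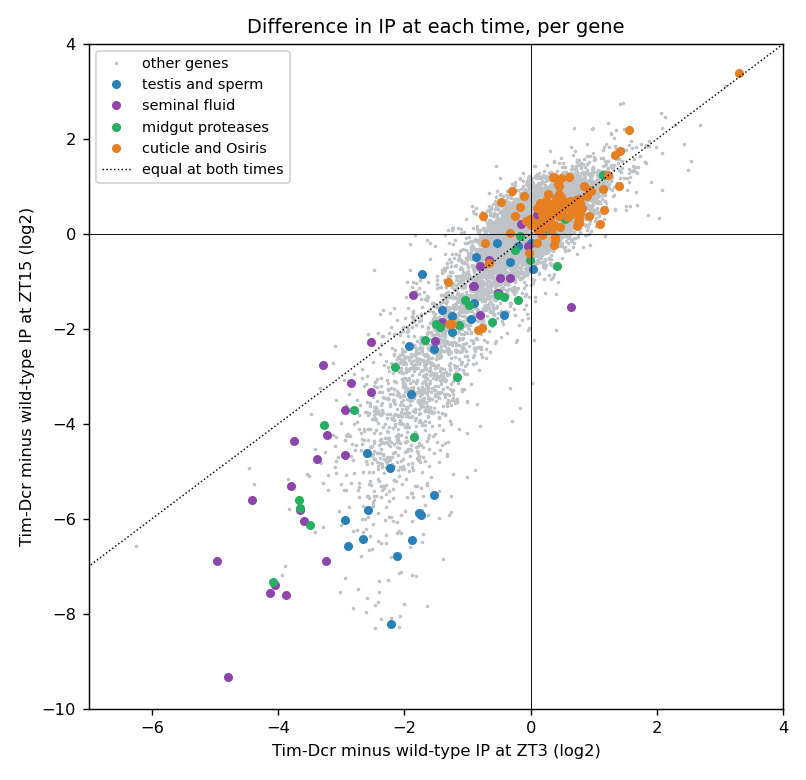
Difference of Tim-Dcr minus wild-type IP at ZT15 (y axis, log2) against that at ZT3 (x axis, log2), 1 point per gene, with 4 lists coloured and a dotted line where both are equal. Testis, seminal fluid and midgut genes reach below the line, to -9.33 at ZT15 for Acp98AB, while cuticle and Osiris genes lie mostly above 0 at both times.

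Most of the differences in IP had a counterpart in INPUT. Of the 2541 genes higher in IP 1662 were higher in INPUT too (65.4% of the IP calls and 43.3% of the 3842 INPUT calls), and 9 were lower there. Of the 2376 lower in IP 1913 were lower in INPUT (80.5% and 80.6%), and 37 were higher. INPUT as a whole had 33.9% of genes higher and 20.9% lower. Head lists in INPUT stood above their medians in IP for neuropeptides (0.71, with 19 higher), eye pigment (0.67, with 11 higher) and photoreceptor (0.57) and glial genes (0.57, both with 11 higher), while all genes had a median of 0.22. Array medians in INPUT were 5.66 and 5.93 in Tim-Dcr, against 6.11 to 6.19 in wild type.

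Whether an mRNA differed with AGO1 beyond its difference in the head was asked by the difference in IP minus that in INPUT. Few genes passed this test, namely 84 higher (0.741%) and 259 lower (2.28%), or 125 (0.789%) and 307 (1.94%) probe sets. With wild-type INPUT and IP of one replicate number as a pair, limma called 208 and 512. The count moved strongly when a Tim-Dcr IP array was left out, and without that of ZT3 nearly all calls were lost. Such a fit sets the IP difference at 1 time against an INPUT difference averaged over both. The part of these unmatched times in the change of the count was not tested. Single wild-type IP arrays moved it as well. Without ZT3 replicate 1 the counts were 72 and 186, without ZT3 replicate 2 91 and 177, without ZT15 replicate 1 238 and 696, and without ZT15 replicate 2 62 and 148. On centred arrays 105 were higher and 61 lower, so that 63.3% of calls were higher, against 28.9%.

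The 2 directions differed in kind. Of the 259 lower genes 227 were higher in INPUT, 180 of them without a call in IP, and 67 were lower in IP. Of the 84 higher genes 57 were lower in INPUT and 36 higher in IP. These calls rest on the same arrays as the test itself and describe it. A missing call in IP does not show that the genotypes were alike there.

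CG15385 was among the 8 genes with the lowest difference between the fractions. It had 7.70 at ZT3 and 7.58 at ZT15 in Tim-Dcr INPUT, against 5.03 at ZT3 and 5.53 and 5.56 at ZT15 in wild-type INPUT. In IP it had 7.88 and 8.15 in Tim-Dcr, against 7.30 and 7.63 at ZT3 and 7.48 and 7.71 at ZT15 in wild type. The extract thus held it 2.31 higher (SE 0.25), the precipitate held it 0.48 higher (SE 0.23), which did not pass, and the groups overlapped in neither, with a difference between the fractions of -1.83 (SE 0.34, limma adjusted p = 0.0157). lov, a BTB-domain factor of the nervous system, had 8.13 and 8.05 in Tim-Dcr INPUT, against 6.37 at ZT3 and 6.43 and 6.84 at ZT15 in wild type, while its IP values of 6.24 and 6.45 in Tim-Dcr stood close to those of wild type, 6.44 and 6.60 at ZT3 and 5.87 and 6.39 at ZT15. Its difference between the fractions was -1.54 (SE 0.27).

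dsx, the transcription factor at the end of the sex determination pathway, was lower in IP and higher in INPUT. It had 5.96 and 7.14 in Tim-Dcr IP, against 7.30 and 7.65 at ZT3 and 7.13 and 7.64 at ZT15 in wild type, and 7.29 and 7.88 in Tim-Dcr INPUT, against 6.65 at ZT3 and 6.80 and 6.87 at ZT15 in wild type. The IP groups overlapped at ZT15. Its difference between the fractions was -1.75 (SE 0.37, limma adjusted p = 0.0240), but a second probe set of dsx was higher in IP by 1.33. CG5466 (-1.62) and CG13252 (-1.56) were likewise lower in IP and higher in INPUT, the homeobox gene Dr (-1.65) was higher in INPUT and missed the threshold in IP, whereas l(2)41Ab (-1.74) and CG7142 (-1.88) were lower in IP with no call in INPUT.

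At the other end stood Gld2, a cytoplasmic poly(A) polymerase of the male germ line, which had 5.56 and 4.80 in Tim-Dcr INPUT, against 8.90 at ZT3 and 9.36 and 8.27 at ZT15 in wild type. In IP it had 4.98 and 3.84 in Tim-Dcr, against 5.74 and 5.24 at ZT3 and 5.81 and 5.21 at ZT15 in wild type. It fell by 3.72 in INPUT and by 1.09 in IP, and the difference between the fractions was 2.63 (SE 0.46, adjusted p = 0.0121). CG15531 (2.35), CG17562 (2.22), CNT1 (2.03), CG33287 (1.94), the dynein gene Dnah3 (1.92, with a difference in IP of -0.31, not past the test, and of 0.25 at another probe set), CG13978 (1.88) and CG13501 (1.75) were the next, and each had a wild-type IP value under 6 on all 12 arrays. CNT1, CG33287 and Dnah3 lay under 4 in all 6 IP arrays of both genotypes, where little room was left for a fall in IP. In CG15531, CG17562 and CG13978 both Tim-Dcr IP values were under 4. The part of this low signal in their differences between the fractions was not tested. para (1.48) and Blimp-1 (1.57) belonged to the 36 that were higher in IP, with INPUT differences of -0.12, not past the test, and 0.73. The muscle and nuclear anchoring gene Msp300 (1.73, named after its value was seen) was higher in IP and lower in INPUT.

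**Figure D4:**
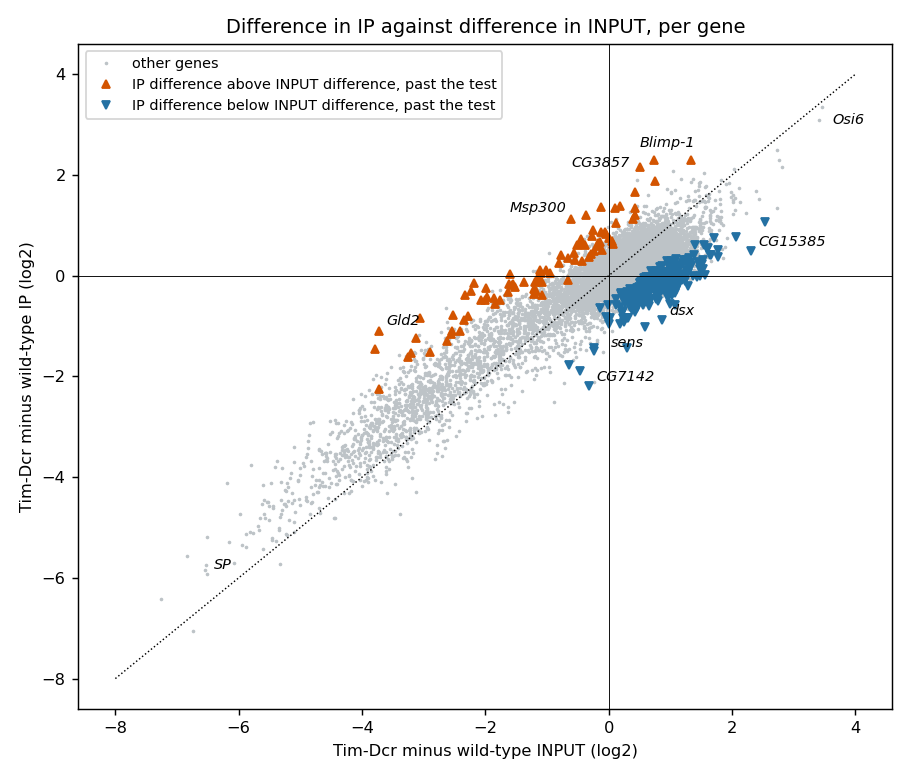
Difference of Tim-Dcr minus wild type in IP (y axis, log2) against that in INPUT (x axis, log2), 1 point per gene; triangles mark genes for which the 2 differences were told apart by limma, and the dotted line marks equal differences. The 259 genes below the line lie mostly at INPUT differences from 0 to 2, and the 84 above it reach to an INPUT difference of -3.80 for CG15531.

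mRNAs most over-represented with AGO1 in wild type had a lower median difference between the genotypes in IP than in INPUT. Probe sets were put in 10 groups of nearly equal size by their wild-type IP minus INPUT values at ZT7, ZT11, ZT19 and ZT23, times with arrays that enter no Tim-Dcr difference. This grouping was chosen after the data had been seen. Wild-type IP minus INPUT, there at ZT3 and ZT15, also enters the outcome with a minus sign. Ends of opposite sign can thus arise in any arrays that follow wild type imperfectly. The grouping cannot tell this from a difference in what AGO1 holds. In group 10, the most over-represented with AGO1 (1584 probe sets), the median difference of Tim-Dcr minus wild type was 0.09 in IP and 0.56 in INPUT. Their difference between the fractions had a median of -0.52, lay below 0 in 88.2%, and was called lower in 167 and higher in 2. In group 1, the least over-represented, the medians were 0.15 in IP and -0.03 in INPUT, and the difference between the fractions was 0.28, with 64 called higher and 1 lower. All probe sets together had -0.02.

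Group 10 lay below 0 and group 1 above it at each time, in abundant mRNAs and at 1 level of INPUT. These repeats have the same limit, since each ranks by wild-type IP minus INPUT. Group 10 had -0.62 at ZT3 and -0.38 at ZT15, and group 1 had 0.24 and 0.34. Among probe sets with a wild-type IP level above 5 groups 10 and 1 had -0.56 and 0.30, and among those with a wild-type INPUT level from 8 to 9 they had -0.55 and 0.33. On centred arrays they had -0.40 and 0.40. Between the ends the median was 0.15 in group 2 and 0.02 in group 7. The groups between were not in order throughout, since at ZT3 the median was 0.09 in group 3 and 0.16 in group 5. In INPUT 940 probe sets of group 10 (59.3%) were higher and 99 lower, whereas 286 of group 1 were higher and 516 lower. Group 1 therefore also holds many of the mRNAs that were low in the Tim-Dcr extract. The part of that difference in its value was not tested.

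**Figure D5:**
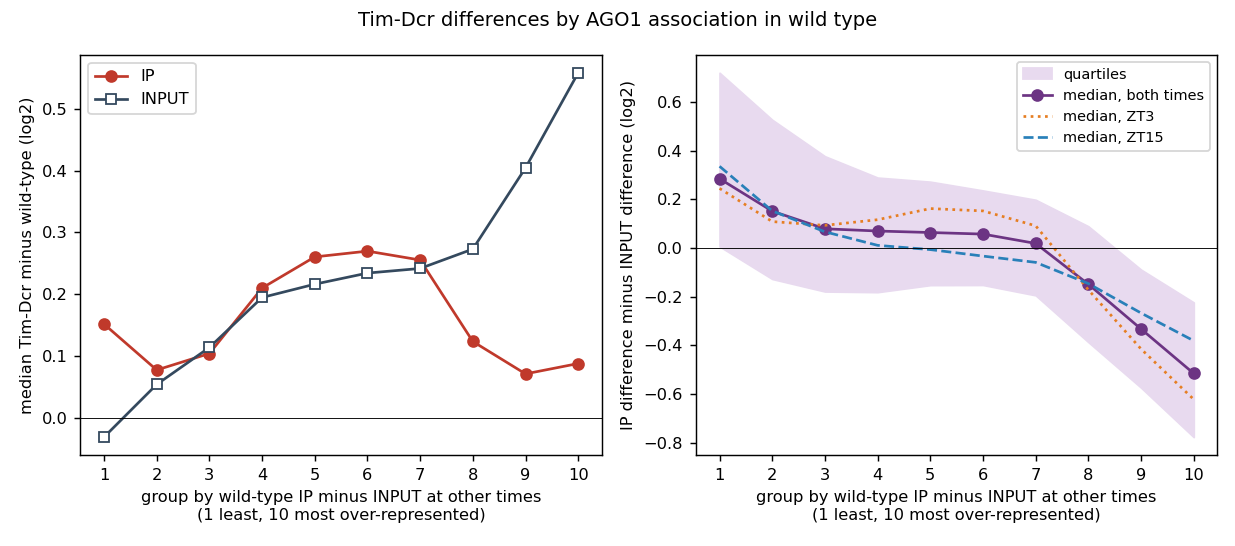
Medians over probe sets in 10 groups of AGO1 association in wild type (x axis, group 1 least and group 10 most over-represented in IP), on the left as Tim-Dcr minus wild type in IP and in INPUT (y axis, log2) and on the right as IP difference minus INPUT difference with quartiles (y axis, log2). INPUT reaches 0.56 in group 10 while IP stays at 0.09, and the median on the right ends at -0.52.

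Single genes of group 10 are named here by their wild-type over-representation, a choice made after the data were seen. Vang, which sets planar cell polarity from the cell membrane, had the highest over-representation of all genes. In INPUT it had 8.45 and 8.43 in Tim-Dcr, against 6.19 at ZT3 and 6.52 and 6.53 at ZT15 in wild type. In IP it had 10.07 and 9.90 in Tim-Dcr, against 9.11 and 9.26 at ZT3 and 9.21 and 9.26 at ZT15 in wild type. Both fractions were higher without overlap, INPUT by 2.06 (SE 0.19) and IP by 0.77 (SE 0.18), and the difference between the fractions was -1.29 (SE 0.27, limma adjusted p = 0.0237). neur, the ubiquitin ligase of the Notch pathway, had 7.39 and 7.28 in Tim-Dcr INPUT, against 6.19 at ZT3 and 5.95 and 6.50 at ZT15 in wild type, and 8.48 and 8.76 in Tim-Dcr IP, against 8.66 and 8.85 at ZT3 and 8.23 and 8.92 at ZT15 in wild type. Its difference between the fractions, -1.16 (SE 0.31), missed the threshold at an adjusted p of 0.0533. Of the other 13 most over-represented genes CG15345 passed (-1.18), AdamTS-A had -0.05 and CG10710 0.12, and the remaining 10 lay between -0.95 and -0.30 without passing.

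Of the 20 published microRNA targets, 1 was called lower and 1 higher for the difference in IP minus that in INPUT, and 18 did not pass. Of all genes 2.28% were called lower and 0.741% higher. In INPUT 8 of the 20 were higher and 1 lower around 0.46. Of all genes 33.9% were higher there, near the share of this list, and 20.9% lower, around 0.22. The difference between the fractions had a median of -0.71 for these targets (-0.59 on centred arrays), against -0.05 for all genes. wls (-1.02) passed as lower and mei-P26 (1.11) as higher, and Nf1 (-1.14) and ex (-0.95) had values of this size that did not pass. The E(spl) and Bearded families had a median of -0.73 with 0 of 10 called by limma and 2 lower at an unadjusted p under 0.05. Glial (-0.38), ribosomal (-0.33), neuropeptide (-0.29) and photoreceptor genes (-0.23) lay below all genes too. Proteasome genes, of which 14 of 26 were lower in INPUT, against 20.9% of all genes, lay above at 0.32. Of the 20 photoreceptor genes 3 were called lower and 1 higher by limma for this difference, and 16 did not pass. Of the lower ones 2 are named here, chosen after their values were seen. The sodium-calcium exchanger Calx was 1.36 higher in INPUT and -0.01 different in IP. Its difference between the fractions was -1.38 (SE 0.25, limma adjusted p = 0.0148), and the carotenoid-cleaving enzyme ninaB had -1.07 (limma adjusted p = 0.0236). Gbeta76C (0.63) and inaD (0.61) lay above 0 without passing.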

How the data were processed

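Messenger RNA of fly heads was measured on 1-colour Affymetrix Drosophila arrays, in INPUT and AGO1 IP. The authors deposited log2 values made with GCRMA, which subtracts modelled background, normalizes and summarises probes, per the submitters' processing notes. The GCRMA version was not given in the sources used here, nor which arrays it took together. The number of arrays, not a read depth, limits precision. Of 18952 probe sets, 183 controls were left out and 15835 with a value above 4 in at least 3 of the 27 arrays were kept. Platform annotation gave 13647 probe sets 1 symbol, 402 several and 4720 none, and only the first were named; each gene is read from the probe set whose mean over the 27 arrays is highest. 938 genes had further probe sets, which are not given for every named gene.

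All 27 arrays were fitted with limma 3.58.1 in R 4.3.3, with a mean for each fraction and time and a Tim-Dcr offset in each fraction (13 residual degrees of freedom). The difference in IP at ZT15 minus that at ZT3 came from separate offsets (11 degrees of freedom). P-values were adjusted by Benjamini-Hochberg over all probe sets, with a threshold of 0.05. With separate offsets (11 degrees of freedom) the spread comes from wild-type replicates alone, and Tim-Dcr is assumed to vary like them. In the main fit (13 degrees of freedom) it also holds the change of the Tim-Dcr difference between the times. Where that change was large, it raised the SE in IP, in INPUT and in IP minus INPUT. For lncRNA:CR9284 the SE was 0.96 in IP, against 0.39 for ZT15 minus ZT3. Same-numbered wild-type INPUT and IP arrays deviated together (correlations from 0.379 to 0.660 at 5 times), so the numbers were taken as pairs from the data, and the paired value is given where it moves a count.

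The rule for named genes took the 15 highest and 15 lowest called genes in IP, the 8 of each kind in IP minus INPUT, the 5 of each kind between the times, the clock list and the members of each list with the largest differences. The members and lists were chosen with earlier results of these data known. Alternatives changed scaling, filter, model, arrays and probe set choice. Scripts were tested on simulated data. Python 3.11.15 with pandas 2.3.3 made the tables, and matplotlib 3.10.9 drew the figures.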

Additional observations from a re-analysis of the deposited data

Results flagged for a closer look

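These results are listed because limma's test of the difference between the times passed. It compares the Tim-Dcr minus wild-type difference in IP at ZT15 with that at ZT3. It called 307 probe sets lower and 26 higher. Among genes of the male reproductive tract the value at ZT15 minus ZT3 was -4.52 for Acp98AB, -3.44 for Dup99B, -3.72 for EbpII, -3.35 for Acp53C14b, -3.10 for Anp, -6.01 for ocn, -3.67 for Mst84Db, -3.78 for Mst87F and -3.08 for Mst84Dd. The midgut trypsin alphaTry had -3.24 and the odorant-binding protein gene Obp51a -2.47. Genes known by number only had -5.83 (lncRNA:CR9284), -5.06 (CG31226), -5.36 (CG17377), -4.52 (CG18662), -5.75 (CG31740), -6.20 (CG8701), -6.19 (CG17376), -5.98 (CR17567) and -5.88 (CG31870). The values above 0 were 1.80 for CG11825, 1.53 for CG34355, 1.52 for Pvf2, 1.43 for CG33096 and 1.33 for CG42588. CG11825 had 4.66 at ZT3 and 6.95 at ZT15 in Tim-Dcr IP, against 6.56 and 6.4 at ZT3 and 6.87 and 7.07 at ZT15 in wild type, so the genotypes stood apart at ZT3. No group had the 4 samples needed to look for outlying arrays.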

How the results depend on the processing

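No called gene changed direction under the alternatives run. Of 2470 values of named genes 2265 kept their side of the threshold, 168 lost the call and 37 gained it. Centred arrays gave 9380 higher calls in IP, 11308 calls of 1 sign, 61 lower calls for IP minus INPUT, and -0.3983 and 0.4023 for groups 10 and 1 of AGO1 association. Quantile normalization gave 0.3929 for group 1, and 304 higher and 499 lower calls between the times. Keeping probe sets with an IP mean above 5 gave 1765 higher calls in IP, 3917 of 1 sign and 13 higher between the times, and no filter gave 44. The 6 IP arrays alone gave 1434 higher, 1791 lower and 3225 of 1 sign, and the 14 IP arrays alone 5 higher and 185 lower between the times. The replicate block of wild-type INPUT and IP pairs gave 208 higher and 512 lower for IP minus INPUT and moved no other count of calls by over 1.5 times. Leaving out 1 IP array gave 1385 to 4922 higher and 1640 to 2815 lower calls in IP, 10 to 238 higher and 2 to 696 lower for IP minus INPUT, 10 to 139 higher and 174 to 706 lower between the times, and -0.5990 to -0.4144 and 0.2271 to 0.3335 for groups 10 and 1. The test between the times could not be computed without a Tim-Dcr array. Centring moved 26 of 30 list medians by more than the replicate spread, and turned those of the E(spl) and Bearded, ribosomal, oxidative phosphorylation, proteasome, muscle and stress lists above 0; averaging probe sets moved 2. The cause of these changes was not tested. Low signal limits the receptor and cuticle lists most.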
